A study of Mus musculus with 20 samples.

Results

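The genes described here make, conjugate, move and sense bile acids in the liver. They are 10 genes, chosen by name: Cyp7a1, Cyp7b1, Cyp8b1, Cyp27a1 and Cyp39a1 (synthesis), Baat (conjugation), Slc10a1 and Abcb11 (transport), and Nr1h4 and Nr0b2 (nuclear receptors). Each matched 1 of the 25444 gene loci in the tables, and all 10 were among the 13704 genes that had enough counts to be tested. RNA was taken from the left lateral lobe of the liver of 20 untreated mice at 20 weeks of age. The groups were 5 females and 5 males of C57BL/6N (B6) and 5 females and 5 males of C3H/HeN (C3), both inbred strains without an introduced allele. All animals were single housed, had been moved to a different diet in the weeks before collection, and were killed in a standard window of a few hours in the morning, while females and males lived in separate rooms. Sex and room therefore cannot be told apart here, and the clock time of each liver is not in the labels.

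Bile acids are made from cholesterol in hepatocytes. In the classic route CYP7A1, the rate-limiting enzyme, places a hydroxyl group on cholesterol, and CYP8B1 adds the further hydroxyl that makes cholic acid. In the alternative routes the side chain is oxidized before the ring, with CYP27A1 and CYP7B1 acting in turn, and CYP39A1 acts on an oxysterol hydroxylated in the side chain by the brain enzyme CYP46A1. The products are joined to taurine or glycine by BAAT, pumped into bile by ABCB11 (the bile salt export pump) and taken back up from portal blood by SLC10A1 (also called NTCP). When bile acids accumulate they activate NR1H4 (the farnesoid X receptor), which induces NR0B2 (the small heterodimer partner), a repressor of Cyp7a1 and Cyp8b1. Cyp7a1 is also known for its daily rhythm, and several liver P450 genes are known to respond to the sex-specific pattern of growth hormone.

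Libraries were made from total RNA after removal of ribosomal RNA and held 27370921 to 46835745 gene counts each. Levels of a gene across groups are given as CPM (counts scaled to library size) with the SD over 5 mice, and levels of different genes are compared only in TPM, which is also scaled to gene length. A gene was called as changed when its Benjamini-Hochberg adjusted p in edgeR's quasi-likelihood test was under 0.001 over all genes tested and its log2 fold change was over 0.5 in either direction. A negative log2 fold change means lower in females, or lower in C3. The liver label was checked against hepatocyte genes: the 6 markers Alb, Ttr, Apoa1, Tat, Serpina1c and Hnf4a summed to between 71200 and 157000 CPM, whereas 6 bile duct markers summed to between 21.7 and 43.9 CPM. Hbb-b1 and Hba-a1 of red blood cells and Fabp6 of the ileum had 0 counts in all 20 livers. In bulk RNA, fewer cells of a kind and less RNA per cell cannot be told apart.

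Between the sexes, Cyp7b1, of the alternative route, was several times lower in females than in males of both strains, Cyp39a1 was higher in females of both strains, and Cyp8b1 was lower in B6 females. In B6, 3 of the 10 genes were called (Cyp39a1 higher, Cyp7b1 and Cyp8b1 lower in females), against 6.34% of all genes tested (3.23% higher and 3.12% lower). In C3, 2 of the 10 were called (Cyp39a1 higher and Cyp7b1 lower), against 6.90% of all genes tested (4.11% higher and 2.79% lower). The median log2 fold change over the 10 genes was -0.11 in B6 and -0.27 in C3, beside 0.002 and 0.015 over all genes. Both transporters and both receptors were outside the calls, as the plot of CPM in every liver shows.

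**Figure D1:**
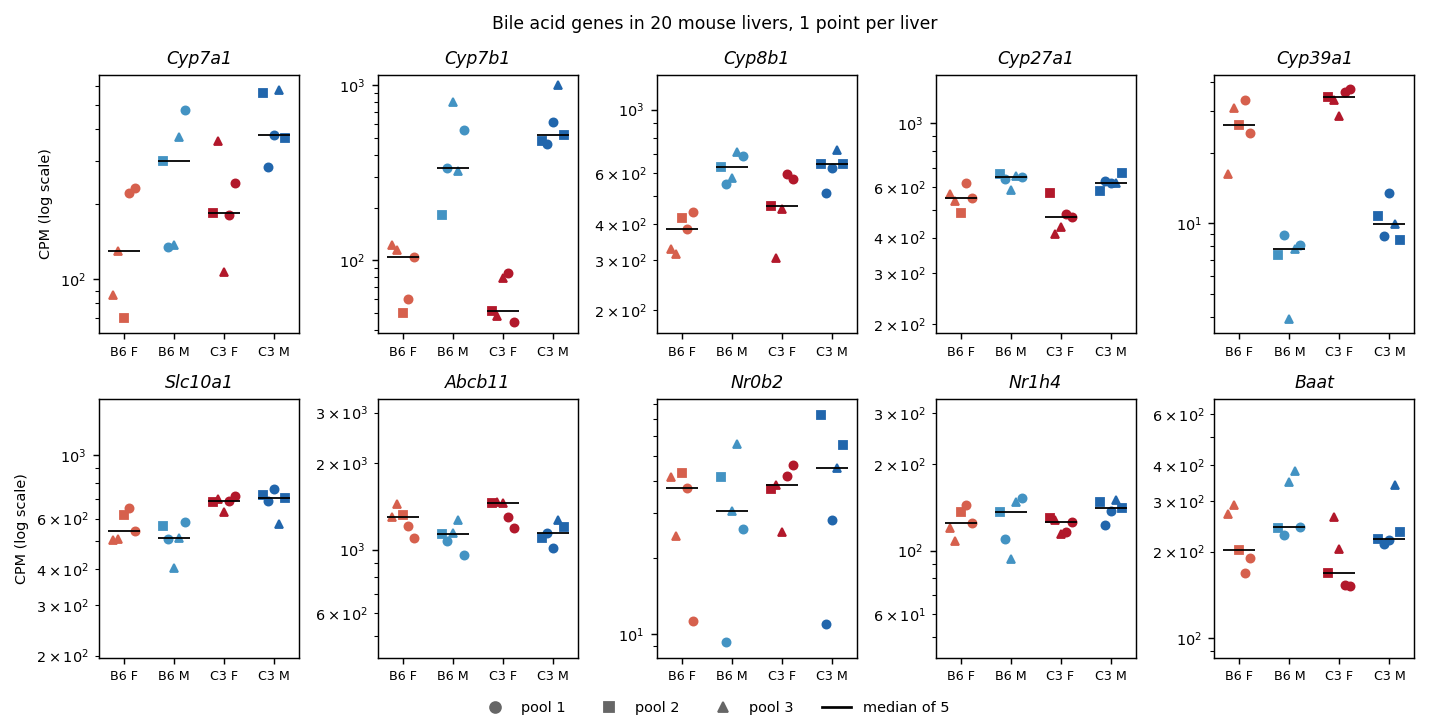
CPM of each of the 10 bile acid genes (vertical log axis) in B6 females, B6 males, C3 females and C3 males; each point is 1 liver, its shape the sequencing pool, and the line the median of 5. The female and male points of Cyp7b1 and Cyp39a1 do not overlap in either strain, while those of Nr0b2 spread widely within every group.

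Cyp7b1 (oxysterol 7-alpha-hydroxylase, chr3:17971950-18143338, mm9, minus strand, 6 exons) was the most sex-dependent of the 10 genes. In B6 females it stood at 123, 115, 49.9, 60.3 and 105 CPM, and in B6 males at 182, 338, 805, 322 and 556 CPM. In C3 females it stood at 51.7, 47.8, 79.1, 84.1 and 44.3 CPM, and in C3 males at 482, 464, 616, 999 and 521 CPM. Every male was above every female of its strain, and the C3 groups lay further apart than the B6 groups. The means were 90.6 ± 33.3 and 441 ± 244 CPM in B6 females and males (SD, n = 5) and 61.4 ± 18.7 and 616 ± 222 CPM in C3 females and males (SD, n = 5). Cyp7b1 was 4.81-fold lower in females in B6 (log2 fold change -2.27, SE 0.28, edgeR adjusted p = 6.6e-06) and 11-fold lower in C3 (-3.46, SE 0.30, adjusted p = 7e-08). Within the 3 pools the differences of the mean log2 CPM were -2.45, -1.87 and -2.09 in B6 and -3.13, -3.27 and -4.02 in C3, with 1 or 2 livers a side. The sex difference was not shown to be unequal between the strains: the interaction was -1.19 (95% confidence interval -2 to -0.39). Its edgeR p was 0.0057 before and 0.11 after adjustment over all genes. Between strains Cyp7b1 was not called, with log2 fold changes of -0.48 in females (adjusted p = 0.19) and 0.71 in males (adjusted p = 0.053).

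Cyp39a1 (oxysterol 7-alpha-hydroxylase of the side-chain pathway, chr17:43804321-43888380, mm9, plus strand, 12 exons) went the other way. In B6 females the 5 livers gave 16.2, 30.9, 26.1, 33.4 and 24.1 CPM, against 7.31, 8.97, 3.94, 7.77 and 8.07 CPM in B6 males. In C3 females they gave 34.6, 33.3, 28.5, 36.0 and 37.3 CPM, against 10.7, 8.87, 13.4, 9.95 and 8.46 CPM in C3 males. The lowest female of each strain was above the highest male. The fold was 3.65 in B6 (log2 fold change 1.87, SE 0.18, edgeR adjusted p = 3.4e-07) and 3.36 in C3 (1.75, SE 0.18, adjusted p = 7.9e-07). The interaction was -0.12, with a 95% confidence interval from -0.64 to 0.41 (adjusted p = 0.88). C3 males lay above B6 males by a log2 fold change of 0.50 (adjusted p = 0.044) and C3 females above B6 females by 0.38 (adjusted p = 0.095), neither of which was called. Within pools the sex difference was 1.73, 1.83 and 2 in B6 and 1.75, 1.86 and 1.62 in C3.

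Cyp8b1 (sterol 12-alpha-hydroxylase, chr9:121823474-121825423, mm9, minus strand, a gene of 1 exon) was lower in females in B6. B6 females had 328, 314, 419, 385 and 442 CPM and B6 males 632, 550, 578, 711 and 692 CPM, with no overlap. C3 females had 462, 305, 450, 599 and 574 CPM and C3 males 647, 512, 626, 726 and 647 CPM, and here the ranges overlapped. The B6 difference was 1.69-fold (log2 fold change -0.76, SE 0.14, edgeR adjusted p = 0.00048) and was called. In C3 it was -0.39 (95% confidence interval -0.69 to -0.09, adjusted p = 0.035) and was not called. The interaction did not pass either (0.36, adjusted p = 0.39), so a difference in the sex effect between strains was not shown. The B6 call rested on a narrow margin: without any of B6 female 1, 2 or 4 or B6 male 1, 3, 4 or 5 the adjusted p lay between 0.0012 and 0.0021, and it was 0.0011 with upper-quartile scaling, 0.0021 without the pool term and 0.002 in limma on log2(TPM + 1). Within pools 1, 2 and 3 the B6 difference was -0.58, -0.59 and -1, and the C3 difference was 0.05, -0.48 and -0.97.

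The remaining synthesis enzymes were not called between the sexes. Cyp7a1 (cholesterol 7-alpha-hydroxylase, chr4:6192759-6202778, mm9, minus strand, 6 exons) had 86.7, 130, 70.0, 222 and 233 CPM in B6 females and 299, 135, 137, 373 and 477 CPM in B6 males. In C3 females it had 184, 361, 107, 181 and 243 CPM and in C3 males 560, 283, 379, 578 and 370 CPM. The female and male ranges overlapped in both strains. The male mean was the higher in both, 284 ± 149 against 148 ± 75.6 CPM in B6 and 434 ± 129 against 215 ± 94.7 CPM in C3 (SD, n = 5). The log2 fold changes of -0.98 in B6 (95% confidence interval -1.83 to -0.14, edgeR adjusted p = 0.067) and -1.06 in C3 (-1.92 to -0.20, adjusted p = 0.047) did not reach the threshold, with SEs of 0.40 and 0.41, among the largest of the 10 genes. In pool 1 of B6 the difference was -0.16, while in pools 2 and 3 it was -2.09 and -1.09. C3 was above B6 by 0.58 in females (adjusted p = 0.29) and 0.66 in males (adjusted p = 0.22), also without a call.

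Cyp27a1 (sterol 27-hydroxylase, chr1:74760109-74784471, mm9, plus strand, 9 exons) varied little. The mean of B6 females was 551 ± 47.9 CPM and that of B6 males 639 ± 31.4 CPM, and in C3 the means were 475 ± 62.0 and 623 ± 32.6 CPM (females and males, SD, n = 5). In C3 every female, from 410 to 572 CPM, was below every male, from 580 to 671 CPM. The C3 difference passed the p threshold (edgeR adjusted p = 0.00098) but its log2 fold change of -0.38 did not pass the fold threshold. In B6 it was -0.21 (adjusted p = 0.035), with 488 to 620 CPM in females and 586 to 666 CPM in males.

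**Figure D2:**
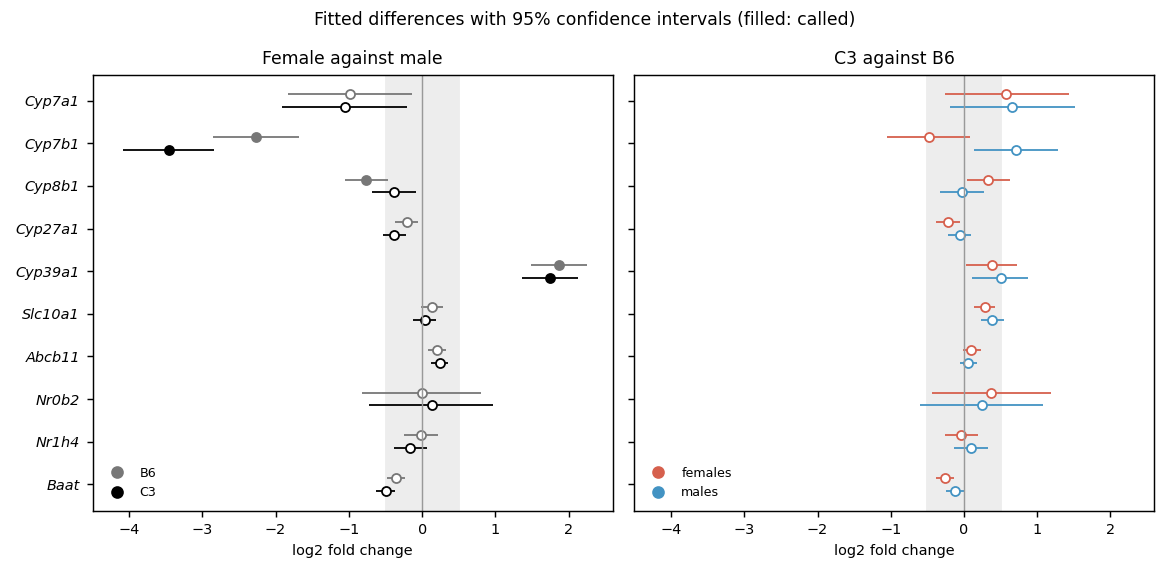
Log2 fold change (horizontal) with 95% confidence interval for each gene, female against male in B6 and C3 (left) and C3 against B6 in females and males (right); filled points were called and the grey band marks the fold threshold of 0.5. Cyp7b1 and Cyp39a1 lie far from 0 on opposite sides on the left in both strains, and no point on the right is filled.

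Baat (bile acid CoA:amino acid N-acyltransferase, the conjugating enzyme, chr4:49502290-49519430, mm9, minus strand, 4 exons) showed a small sex difference whose p depended on the pool term. B6 females had 270, 291, 203, 169 and 190 CPM and B6 males 241, 229, 349, 381 and 243 CPM. C3 females had 168, 263, 204, 153 and 152 CPM and C3 males 221, 213, 220, 341 and 233 CPM. The female and male ranges overlapped in both strains. The livers sequenced in pool 3 were the high ones: in each of the 4 groups the 1 or 2 livers of that pool (7 in all) were above all the others. A test of the pool terms, added after the values were seen, gave Baat an adjusted p of 6.2e-09, beside 60.1% of all genes tested at an adjusted p under 0.05. With pool in the model, Baat was lower in females by a log2 fold change of -0.36 in B6 (SE 0.06, edgeR adjusted p = 0.00019) and -0.50 in C3 (SE 0.061, adjusted p = 7.1e-06), just under the fold threshold in C3. Without the pool term the values were -0.36 (adjusted p = 0.25) and -0.39 (adjusted p = 0.18). Over the alternatives that kept all livers, the lowest and highest adjusted p were 9.5e-08 (DESeq2) and 0.25 for B6, and 5.6e-14 (DESeq2) and 0.18 for C3. The within-pool differences were -0.39, -0.24 and -0.38 in B6 and -0.51, -0.43 and -0.56 in C3. In C3 it was called with DESeq2, with RLE scaling or without the filter on low counts (-0.51 in each), when only the C3 libraries were fitted (-0.50), and without any of B6 female 3, C3 female 1 or 2, or C3 male 1 or 2 (-0.54 to -0.50).

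The transporters differed little by sex. Slc10a1 (the sodium-dependent uptake carrier, chr12:82054172-82069066, mm9, minus strand, 5 exons) had 507, 510, 617, 652 and 544 CPM in B6 females and 567, 509, 404, 512 and 582 CPM in B6 males. In C3 it had 686, 703, 631, 691 and 717 CPM in females and 727, 691, 761, 575 and 707 CPM in males. In each sex 4 of the 5 C3 livers were above every B6 liver, and the ranges met at the fifth. The strain difference was 0.28 in females (SE 0.072, edgeR adjusted p = 0.0055) and 0.38 in males (SE 0.074, adjusted p = 5e-04), the latter past the p threshold and under the fold threshold. Its sex difference was 0.14 in B6 (95% confidence interval -0.01 to 0.29) and 0.04 in C3 (-0.12 to 0.19).

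Abcb11 (the bile salt export pump, chr2:69076339-69180673, mm9, minus strand, 29 exons) was slightly higher in females of both strains without being called. Its means were 1280 ± 127 and 1110 ± 113 CPM in B6 females and males and 1370 ± 124 and 1150 ± 96.3 CPM in C3 females and males (SD, n = 5). The log2 fold changes were 0.20 in B6 (SE 0.058, edgeR adjusted p = 0.014) and 0.24 in C3 (SE 0.059, adjusted p = 0.0038). Between strains it differed by 0.10 in females and 0.06 in males, with 95% confidence intervals from -0.02 to 0.23 and from -0.06 to 0.18. The ratio of Abcb11 to Slc10a1 TPM in a liver had medians of 0.918 and 0.906 in females and males of B6 and 0.898 and 0.711 in those of C3, and its ranges overlapped between all groups (0.572 to 1.21 over the 20 livers).

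The receptor pair showed no difference past the threshold in any comparison, but with very unequal precision. Nr1h4 (the bile acid receptor, chr10:88916979-88996367, mm9, minus strand, 10 exons) lay between 93.7 and 152 CPM in all 20 livers. Its means were 126 ± 14.1 and 128 ± 25.3 CPM in females and males of B6, and 123 ± 7.25 and 140 ± 10.6 CPM in those of C3 (SD, n = 5). Its sex differences were -0.02 in B6 (95% confidence interval -0.25 to 0.21) and -0.16 in C3 (-0.39 to 0.07). Nr0b2 (the repressor induced by that receptor, chr4:133109291-133112601, mm9, plus strand, 2 exons) had 41.5, 24.3, 42.9, 37.5 and 11.3 CPM in B6 females and 41.6, 9.30, 30.6, 56.1 and 25.8 CPM in B6 males. In C3 it had 37.3, 38.5, 25.3, 41.7 and 46.3 CPM in females and 72.9, 11, 28.1, 45.1 and 55.5 CPM in males. Single livers of B6 females, B6 males and C3 males were 3.79-fold, 6.03-fold and 6.63-fold below the highest of their own group. The sex difference of Nr0b2 was 0.00 in B6 with a 95% confidence interval from -0.82 to 0.81, which leaves room for a change of that size in either direction with 5 mice a group.

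The sequence just upstream of a gene was available from the RefSeq promoter table (build GRCm38.p6) for 6 of the 10 genes: Cyp8b1, Cyp27a1, Slc10a1, Abcb11, Nr0b2 and Nr1h4. The 250 bases before each start were searched on both strands for 5 short motifs: AGGTCA (a hexamer bound by nuclear receptors), TCAAGG (the core of the NR5A2 site), GTTAAT (an HNF1 core), TTCNNNGAA (a STAT5 site) and CAAAGTCCA (an HNF4 site, added after the Cyp8b1 sequence was read). Of the 32851 promoters in the table, 14.0%, 12.5%, 6.43%, 7.02% and 0.384% held them, in that order. The 3 windows printed here were chosen because Cyp8b1 was called between the sexes in B6 and not in C3, Nr0b2 was among the most variable of the 10 genes, and Abcb11 the least, with the matches named afterwards in capitals.
Nr0b2, chr4:133553126-133553375, plus strand: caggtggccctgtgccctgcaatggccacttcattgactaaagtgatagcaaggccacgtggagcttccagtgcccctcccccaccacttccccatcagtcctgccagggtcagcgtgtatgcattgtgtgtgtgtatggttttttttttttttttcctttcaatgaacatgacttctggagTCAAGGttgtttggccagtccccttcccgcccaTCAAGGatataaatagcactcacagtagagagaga
Cyp8b1, chr9:121916306-121916555, minus strand: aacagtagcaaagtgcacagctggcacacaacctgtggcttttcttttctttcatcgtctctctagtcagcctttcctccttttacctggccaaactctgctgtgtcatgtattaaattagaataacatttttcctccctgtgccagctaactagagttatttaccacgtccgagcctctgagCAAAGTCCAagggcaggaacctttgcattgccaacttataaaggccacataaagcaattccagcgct
Abcb11, chr2:69342617-69342866, minus strand: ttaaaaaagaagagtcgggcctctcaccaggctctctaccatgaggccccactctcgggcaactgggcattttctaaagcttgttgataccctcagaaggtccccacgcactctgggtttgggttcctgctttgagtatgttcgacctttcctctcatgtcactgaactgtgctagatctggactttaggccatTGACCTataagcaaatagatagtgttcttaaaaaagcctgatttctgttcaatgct
In Nr0b2 the capitals mark 2 copies of TCAAGG, 68 to 63 and 35 to 30 bases before the start, and a match to the STAT5 letters (TTCAATGAA, left in lower case) lay 91 to 83 bases before it. In Cyp8b1 they mark CAAAGTCCA, 67 to 59 bases before the start, and none of the other 4 motifs was found there. In Abcb11 they mark TGACCT, the reverse complement of AGGTCA, 56 to 51 bases before the start. The matches do not overlap each other. Of the windows not shown, Slc10a1 has 2 entries, with TTCTCTGAA 53 to 45 bases before the first start and AGGTCA 87 to 82 bases before the second, and Nr1h4 holds TGACCT 214 to 209 and GTTAAT 40 to 35 bases before its start. Cyp27a1 held none of the 5. A match is a run of letters only, and binding was not measured.

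Between the strains no bile acid gene was called. In females 0 of the 10 genes were called by edgeR and 0 by DESeq2, against 9.40% of all genes tested in edgeR, and in males again 0 and 0, against 9.64%. At an unadjusted p under 0.05 there were 5 genes in females and 3 in males, beside 41.9% and 44.3% of all genes tested. At an adjusted p under 0.05 there were 3 in females (Slc10a1 higher in C3, Cyp27a1 and Baat lower) and 2 in males (Slc10a1 and Cyp39a1 higher in C3), beside 32.9% and 34.5% of all genes. In neither sex did the B6 and C3 livers of any of the 10 genes lie apart without overlap, beside 12.8% of all genes in females and 15.1% in males. For the sexes this count was 3 of 10 in B6 (Cyp7b1, Cyp8b1 and Cyp39a1) beside 10.9%, and 3 of 10 in C3 (Cyp7b1, Cyp27a1 and Cyp39a1) beside 13.1%. For the sex-by-strain interaction 0 of the 10 were called by edgeR and 0 by DESeq2, against 0.401% of all genes in edgeR, and 1 (Cyp7b1) had an unadjusted p under 0.05, beside 16.1% of all genes.

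Per length, the order of the genes varied with the group, and Cyp7b1 moved furthest in it. In B6 females the median was highest for Cyp27a1 (637 TPM), followed by Slc10a1 (582), Abcb11 (579) and Cyp8b1 (422), and each of these overlapped the next in its range over 5 livers. Baat (225 TPM) lay below all of them and above Nr1h4 (120 TPM) without overlap, and Nr1h4, Cyp7b1 (108), Cyp7a1 (71.1), Nr0b2 (62.5) and Cyp39a1 (18) each overlapped the next. In B6 males Cyp27a1 (672 TPM) and Cyp8b1 (660 TPM) overlapped at the top and stood above Slc10a1 (518), and Cyp7b1 (316) ranked above Baat (252) with overlap. In C3 females Slc10a1 (687 TPM) came first, Cyp8b1 (499 TPM) stood apart from Baat (182 TPM), and Cyp7b1 (50.3 TPM) was the ninth, above Cyp39a1 (23.4 TPM) without overlap. In C3 males Cyp7b1 (472 TPM, from 419 to 898) was the fourth, and overlapped Cyp27a1 (620) above it and Abcb11 (458) below it. Cyp39a1 was the lowest of the 10 in all 4 groups. In males of both strains its highest liver, 5.82 TPM in B6 and 8.26 TPM in C3, was under the lowest Nr0b2 liver (14.6 and 16.8 TPM).

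**Figure D3:**
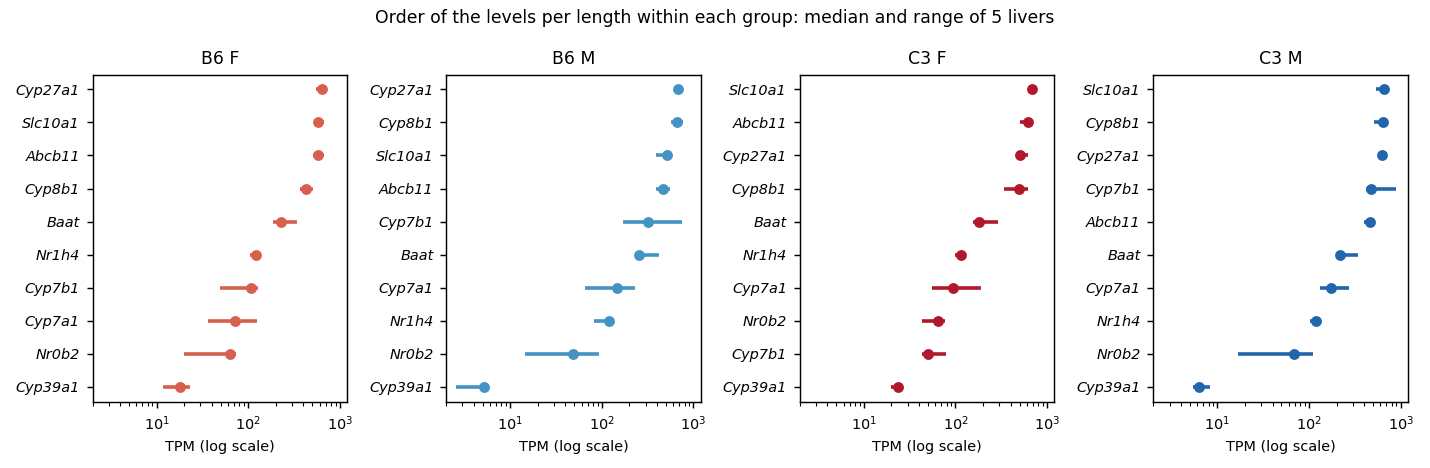
Median (point) and range (line) of TPM over 5 livers for the 10 genes, ordered by median within each group, on a log axis from high at the top to low at the bottom. Cyp7b1 has a median of 108 and 50.3 TPM in B6 and C3 females and of 316 and 472 TPM in B6 and C3 males, and Cyp39a1 is the lowest in every group.

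The balance of the 7-alpha-hydroxylases within a liver followed from these levels. The TPM ratio of Cyp7b1 to Cyp7a1 had a median of 0.541 in C3 females (0.256 to 1.43) and 3.13 in C3 males (1.66 to 3.33), so the C3 sexes did not overlap. In B6 it was 1.37 in females (0.524 to 2.74) and 2.25 in males (1.18 to 11.3), and the sexes overlapped. The ratio of Cyp8b1 to Cyp7a1 overlapped between the sexes in both strains, with medians of 5.16 and 4.53 in B6 females and males and 5.38 and 3.53 in C3 females and males. These ratios are given without a test.

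Variation from liver to liver differed widely among the 10 genes. After group and pool were taken out of log2 CPM, the SD of what remained was 0.63 for Cyp7a1 and 0.63 for Nr0b2, 0.41 for Cyp7b1, 0.27 for Cyp39a1, 0.21 for Cyp8b1 and 0.16 for Nr1h4. It was 0.10 for Cyp27a1, 0.10 for Slc10a1, 0.08 for Baat and 0.07 for Abcb11. The first enzyme and the feedback repressor thus had residual spreads several times those of the transporters. Neither was near the limit of depth, since the lowest Cyp7a1 count was 2076 and the lowest Nr0b2 count 304.

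These deviations were compared between genes over the 20 livers, as a description and without a p, since livers share library, depth and clock time with all their genes. Among the 10 genes the highest r was between Cyp7a1 and Nr1h4 (Pearson r 0.74, Spearman rho 0.71, and r 0.70 without the 2 livers farthest from the median of Cyp7a1). Nr1h4 ranked 40 of 13703 other genes by likeness to Cyp7a1. Slc10a1 and Nr1h4 came next (r 0.70, rho 0.65, and 0.58 or 0.52 without the 2 livers farthest in Slc10a1 or in Nr1h4). The lowest r was between Cyp7b1 and Slc10a1 (r -0.63, rho -0.61, and -0.49 or -0.46 without the 2 livers farthest in Cyp7b1 or in Slc10a1). Nr0b2 deviated in the same direction as Cyp7a1 (r 0.44, rho 0.38) and Cyp8b1 (r 0.52, rho 0.49), the genes it is known to repress. Without the 2 livers farthest in Nr0b2 these r values were 0.23 and 0.32. Without the 2 livers farthest in Cyp7a1 or in Cyp8b1 they were 0.40 and 0.62. Cyp7a1 of the classic route and Cyp7b1 of the alternative route had an r of -0.18 (rho -0.10).

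**Figure D4:**
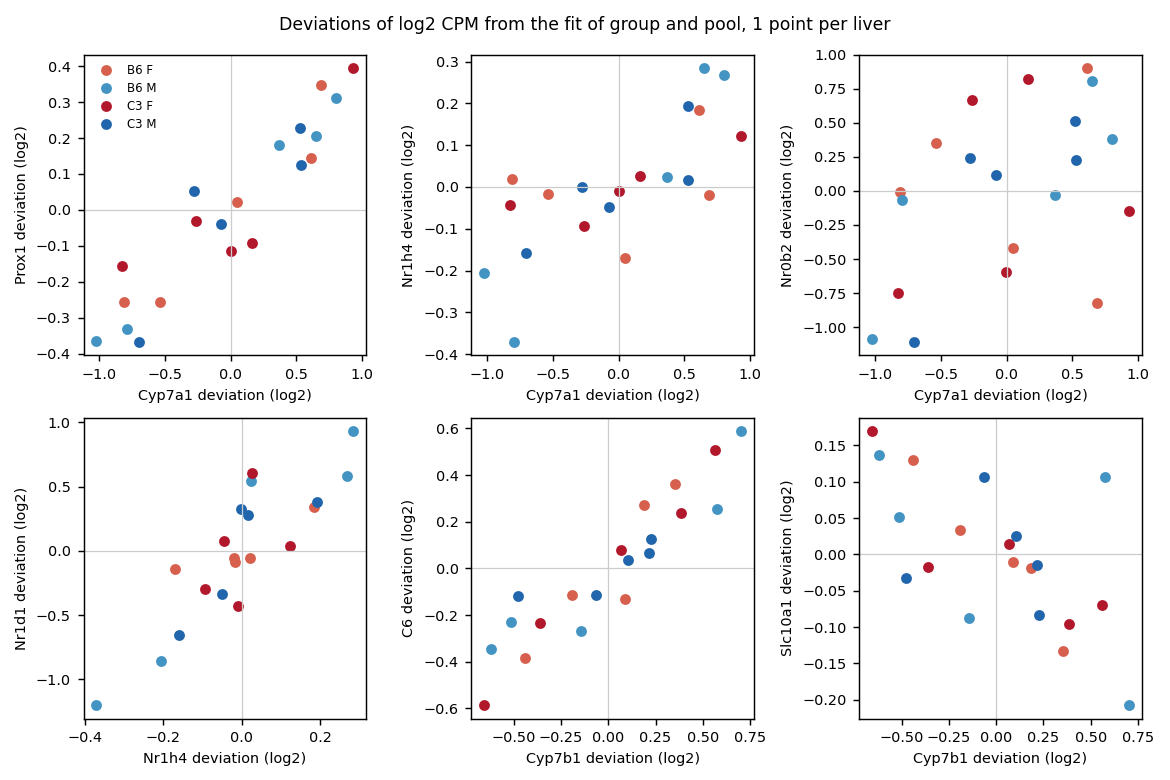
Deviation of log2 CPM from the fit of group and pool in each of the 20 livers, for Cyp7a1 with Prox1, Nr1h4 and Nr0b2, for Nr1h4 with Nr1d1, and for Cyp7b1 with C6 and Slc10a1 (both axes in log2 units, colour by group). Prox1 follows Cyp7a1 closely (r 0.94), Nr1d1 follows Nr1h4 (r 0.86), C6 follows Cyp7b1 (r 0.93), and Slc10a1 runs against Cyp7b1 (r -0.63).

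Over all genes tested, the pattern most like that of Cyp7a1 was that of Prox1, a homeobox transcription factor (r 0.94, rho 0.91, and 0.92 without the 2 livers farthest in Cyp7a1), followed by Glce (0.86) and Usp22 (0.84). For Cyp7b1 the nearest were the complement genes C6 (r 0.93, rho 0.91, and 0.91 without 2 livers), C9 (0.88) and C8b (0.88). For Cyp8b1 they were Wdr81 (0.88), Adamts4 (0.83) and Adam15 (0.82), for Cyp27a1 Slc6a9 (0.91), Nsmf (0.84) and Mrvi1 (0.81), and for Cyp39a1 the P450 gene Cyp2c38 (0.77), Ddx10 (0.73) and Tmem98 (0.72). For Baat they were Gpt2 (0.77), Slc25a15 (0.76) and Prkaa1 (0.75), which fell to 0.52, 0.51 and 0.51 without the 2 livers farthest in Baat. The nearest to Slc10a1 were Nebl (0.81), Pmf1 (0.80) and Spock2 (0.79), to Abcb11 Dnah7b (0.85), 9030617O03Rik (0.85) and Tlcd2 (0.84), and to Nr0b2 Bmp1 (0.87), Gm6034 (0.82) and Slc35d2 (0.82). The nearest to Nr1h4 was the clock gene Nr1d1 (r 0.86, rho 0.88, and 0.75 without 2 livers), followed by Slc28a1 (0.86) and Plk2 (0.79).

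Cyp7a1 is known as a gene of daily rhythm, so clock genes are given beside it. Of 16 clock genes, 1 was called between the sexes in each strain, near the 6.34% and 6.90% of all genes. At an adjusted p under 0.05 there were 10 in B6, beside 34.6% of all genes, and 6 in C3, beside 40.0%. Nr1d2, a repressor of the clock loop, was higher in B6 females (69.3 against 39.3 CPM, log2 fold change 0.82, edgeR adjusted p = 6e-04), and in C3 its difference was 0.26 (adjusted p = 0.20). Bhlhe41, another clock repressor, was lower in C3 females at a low level (0.254 against 1.38 CPM, log2 fold change -2.40, edgeR adjusted p = 0.00059), and in B6 its value had the opposite sign without a call (0.791 against 0.377 CPM, 1.09, adjusted p = 0.058). Its interaction of -3.50 was not called (adjusted p = 0.0034). Nr1d1, the relative of Nr1d2, did not reach the threshold in B6 (1.26, adjusted p = 0.0065) or in C3 (0.23, adjusted p = 0.59). Beside the bile acid genes, the deviations of Nr1d1 had an r of 0.67 with Cyp7a1, 0.70 with Slc10a1 and 0.61 with Nr0b2 over the 20 livers (0.66, 0.66 and 0.45 without the 2 livers farthest in each). With the other genes its r was 0.55 for Cyp39a1, 0.43 for Cyp8b1, 0.12 for Baat, 0.07 for Cyp27a1, -0.22 for Abcb11 and -0.40 for Cyp7b1. Over the 16 clock genes the r with Cyp7a1 ran from -0.18 (Npas2) to the 0.67 of Nr1d1, with Clock at -0.02 and Nr1d2 at 0.20. The part of the hour of collection in the bile acid values was not tested.

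Other genes of the pathway were taken from lists by role, and their counts stand beside shares of all genes called of 6.34% and 6.90% for the sexes in B6 and C3 and 9.40% and 9.64% for the strains in females and males. Of 13 other synthesis genes 12 were tested, and 4 were lower in B6 females, 2 were lower in C3 females and 1 was higher in C3 females. Scp2, whose long product is the peroxisomal thiolase that shortens the side chain, was the largest, with 1450 against 4240 CPM in B6 (log2 fold change -1.55, SE 0.093, edgeR adjusted p = 6e-10) and 1490 against 4180 CPM in C3 (-1.53, SE 0.094, adjusted p = 7.7e-10). Acox2, the peroxisomal oxidase that starts the same shortening, was lower in females of both strains (-0.66, adjusted p = 0.00049, and -0.77, adjusted p = 0.00015). The peroxisomal genes Hsd17b4 (-0.53) and Abcd3 (-0.51) were called in B6, and their C3 values were -0.26 and -0.23, without a call. The interaction was not called for either (adjusted p = 0.13 and 0.30). Ch25h, the cholesterol 25-hydroxylase, had at most 2 counts in any liver and was not tested.

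Cyp46a1, the cholesterol 24-hydroxylase whose product CYP39A1 takes, differed by strain far more than any of the 10 genes. It was at 165 CPM in C3 females against 1.29 in B6 females (log2 fold change 7.11, SE 0.22, edgeR adjusted p = 2e-14) and at 102 CPM in C3 males against 0.829 in B6 males (6.85, SE 0.23, adjusted p = 5.3e-14). In C3 it was also higher in females (0.83, adjusted p = 0.00069), and in B6 the value was 0.57 (adjusted p = 0.12). Cyp39a1 itself was not called between the strains. Cyp2c70, which makes the muricholic acids of mice, was higher in C3 males than in B6 males (1180 against 688 CPM, log2 fold change 0.84, edgeR adjusted p = 0.00023), and in females it was 0.53 (adjusted p = 0.0093), without a call.

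Of 13 other transporters 12 were tested. In B6, 3 were higher and 1 lower in females, and in C3, 4 were higher and 1 lower. Slco1a1, an organic anion uptake carrier of the sinusoidal membrane, was lower in females (197 against 597 CPM in B6, log2 fold change -1.63, edgeR adjusted p = 3.4e-05, and 205 against 845 CPM in C3, -2.20, adjusted p = 1.7e-06). Its relative Slco1a4 was higher in females (148 against 41.2 CPM in B6, 1.89, adjusted p = 2.9e-05, and 151 against 39.1 CPM in C3, 1.82, adjusted p = 6.5e-05). Abcc4, an efflux pump to the blood, was higher in females at a low level (6.05 against 3.66 CPM in B6, 0.72, and 5.05 against 2.23 CPM in C3, 1.29), and so was Abcg5, a subunit of the sterol exporter (0.83 and 0.64). Slc51b, a subunit of the basolateral bile acid exporter, was higher in C3 females (1.56 against 0.423 CPM, 2.31, adjusted p = 0.00022), and in B6 it was 0.95 (adjusted p = 0.064), while Slc51a, its partner, had at most 1 count in any liver. Of these transporters only Abcc4 was called between strains, lower in C3 males (-0.81, adjusted p = 0.00025), and in females it was -0.25 (adjusted p = 0.16).

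Of 16 regulators 14 were tested, with 3 called between the sexes in B6, beside 6.34% of all genes, and 1 in C3, at about the 6.90% of all genes. Cux2, a homeobox repressor, was near 0 in males and present in females (12.6 against 0.258 CPM in B6, log2 fold change 5.56, edgeR adjusted p = 2.3e-07, and 23.8 against 0.289 CPM in C3, 6.30, adjusted p = 4.5e-08). Bcl6, a repressor of opposite sex bias, was lower in B6 females (10.5 against 53.5 CPM, -2.44, adjusted p = 0.00071), and its C3 values did not overlap either without reaching the threshold (14.1 against 52.3 CPM, -1.71, adjusted p = 0.0084). Klb, the coreceptor through which the gut hormone FGF15 acts on Cyp7a1, was higher in B6 females (51.9 against 32.9 CPM, 0.67, adjusted p = 0.00059), and in C3 it was 0.56 (adjusted p = 0.0026). Fgfr4, the receptor of that hormone, was higher in C3 males than in B6 males (36.3 against 24.7 CPM, 0.54, adjusted p = 2.8e-06), and in females the value was 0.49 (35.3 against 25.2 CPM, adjusted p = 7.9e-06), just under the fold threshold. Fgf15 had 0 counts in all livers, and Gpbar1, the membrane bile acid receptor, had at most 2.

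**Figure D5:**
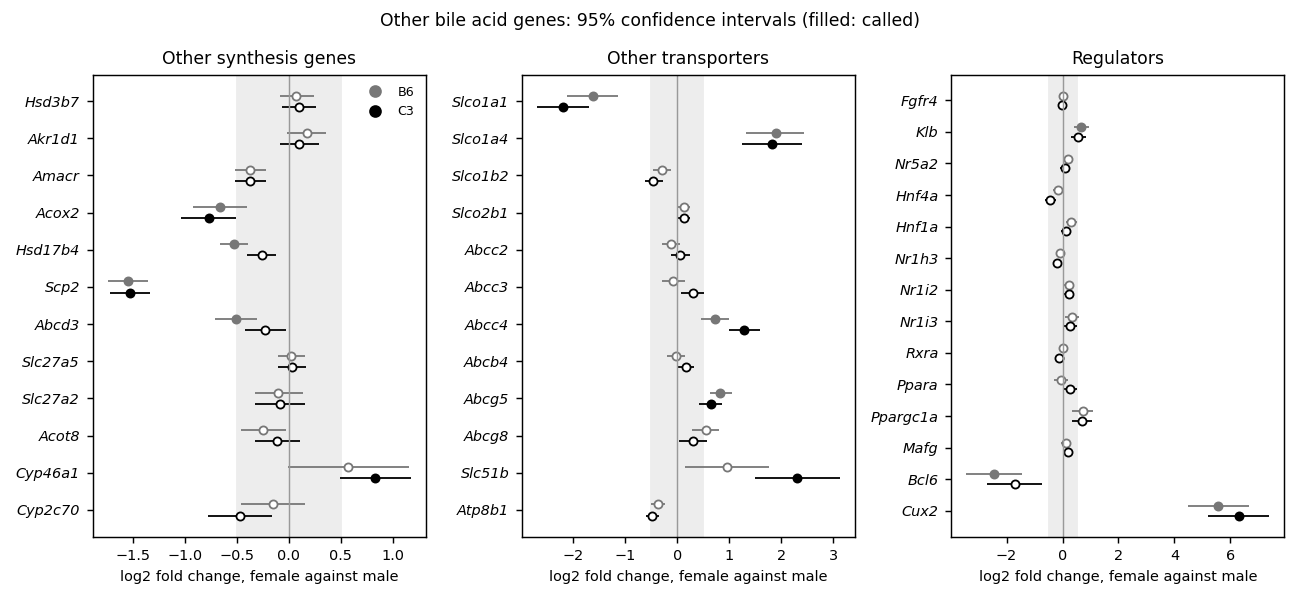
Log2 fold change (horizontal) with 95% confidence interval, female against male in B6 (grey) and C3 (black), for the other synthesis genes, other transporters and regulators that were tested; filled points were called and the grey band marks the fold threshold of 0.5. Scp2 and Slco1a1 lie to the left and Slco1a4 and Cux2 to the right in both strains.

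Markers of other cells and of liver zones also moved with the groups. Of all genes tested, 6.34% and 6.90% were called for the sexes in B6 and C3. For the strains 9.40% were called in females and 9.64% in males. The summed Kupffer cell markers ranged from 330 to 419 CPM in B6 females and from 211 to 326 in B6 males, and from 232 to 345 in C3 females and from 162 to 240 in C3 males. Of these 5, Vsig4 was called higher in females of each strain, and 3 (Adgre1, Clec4f and Vsig4) were called lower in C3 females and 2 (Adgre1 and Vsig4) in C3 males. The 5 lymphocyte markers summed to 0.503 to 4.13 CPM and none was called. At an adjusted p under 0.05 there were 4 of 5 between the sexes in C3, beside 40.0% of all genes. Between the strains in males there were 5 of 5, beside 34.5%. Of 6 stellate and endothelial markers, which summed to 331 to 507 CPM, only Lyve1 was called, lower in C3 females. Of 6 bile duct markers 5 were tested, and only Sox9 was called. Sox9 was lower in females of both strains and higher in C3 females than in B6 females. The median log2 fold change of the 5, female against male, was 0.04 in B6 and 0.45 in C3, opposite in sign to Sox9.

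Among the hepatocyte markers Serpina1c was called lower in females of both strains and Apoa1 higher in C3 of both sexes. The 5 pericentral markers summed to 2160 to 3160 CPM in B6 and 950 to 1510 in C3, with 3 of 5 (Glul, Oat and Rhbg) called lower in C3 females and 4 of 5 (with Lgr5) in C3 males, and none called between the sexes. The 5 periportal markers summed to 917 to 1460 CPM in B6 and 603 to 1110 in C3, with 1 (Hsd17b13) called lower in C3 females and 2 (Hal and Hsd17b13) in C3 males, and none called between the sexes. The part of these markers in the values of the bile acid genes was not tested.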

How the data were processed

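The authors deposited a table of raw gene counts and a table of TPM values, each with 20 liver libraries. Counts came from strand-specific libraries aligned to mm9 with STAR (2.5.1b) after adapter trimming with cutadapt (1.9.1), and were summed over RefSeq genes with featureCounts (Subread 1.5.0-p1), per the submitters' processing notes and the study's methods, with reads of several places or several genes left out. The gene length behind the deposited TPM is not given in the sources used here. Replicates are separate mice.

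Counts were fitted with edgeR (4.0.16, R 4.3.3): filterByExpr, TMM scaling, glmQLFit with group and pool as terms on all 20 libraries together, glmQLFTest, and Benjamini-Hochberg adjustment over 13704 genes. CPM uses TMM library sizes. The thresholds are those of the study. Sex was compared within strain, strain within sex, and their interaction. Ratios and likeness (Pearson r of log2 CPM with a prior count of 2, group and pool removed) are descriptions. Depth was 27370921 to 46835745 counts per library, and 3 counts is taken as the floor, for counting error only. No 2 libraries of a group agreed within sampling noise (chi-square per degree of freedom of 20 or more in 40 pairs).

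All 10 bile acid genes are named in each comparison. From the lists of other synthesis genes, transporters, regulators and clock genes, up to the 4 largest called changes per list and comparison are named, marker lists are given by sums, counts at 0 or calls, and for likeness the 3 genes of highest r. The untested genes, the values of Nr1d1 and of other clock genes with Cyp7a1, and the promoter windows printed were chosen after values were seen. The genes and lists were chosen with earlier results of these data known. On simulated data with 200 of 13704 genes changed by a log2 fold change of 1, the fit for females against males in B6 recovered 142 and the interaction 114, each with 0 false calls. The simulated counts held no pool effect and no other group difference, so these numbers do not measure recovery in the real libraries. Alternatives were DESeq2 (1.42.0), limma (3.58.1) on log2(TPM + 1) or log2(TPM + 0.1) for genes with a mean TPM over 1 in some group, RLE and upper-quartile scaling, no filter, no pool term, a replicate block, only the groups compared, an adjusted p under 0.05 without a fold minimum, and each liver left out.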

Additional observations from a re-analysis of the deposited data

Results flagged for a closer look

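For each of the 40 sets of 5 livers (10 genes in 4 groups), the gap of an end liver to its nearest neighbour was divided by the range. Gap and range were taken on log2 CPM, so the ratios differ from those of the CPM values printed here. In 2 sets the ratio passed Dixon's 95% critical value of 0.71. Chance gives about 1 set in 20. Cyp39a1 in B6 males had its lowest liver, replicate 3 at 3.94 CPM, apart from the others at 7.31 to 8.97 CPM. Its ratio on log2 CPM was 0.751. Baat in C3 males had its highest liver, replicate 4 at 341 CPM, apart from the others at 213 to 233 CPM, with a ratio on log2 CPM of 0.806. That liver was the only C3 male of pool 3, and the livers of pool 3 had the highest Baat in the other 3 groups too. None of the 10 genes passed the interaction test between strains.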

How the results depend on the processing

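Cyp7b1 and Cyp39a1 were called between the sexes in both strains under every alternative run and without any liver. Cyp8b1 in B6 and Baat in C3 crossed the threshold as given above. The number of genes called fell without the pool term to 421 in B6, 482 in C3, 815 between strains in females and 20 for the interaction. It was 625 for the sexes in C3 when only the C3 libraries were fitted, and 182 for the interaction in DESeq2. At an adjusted p under 0.05 without a fold minimum it was 4742 and 5479 for the sexes in B6 and C3, 4515 and 4733 for the strains in females and males, and 405 for the interaction, with 6, 7, 3 and 2 of the 10 genes in the first 4. Leaving out 1 liver gave 32 to 55 genes for the interaction, the lowest without B6 male 1 (32), C3 male 4 (33) and C3 female 1 (34), and 2 to 3 of the 10 genes for each sex comparison. The cause of these shifts was not tested, beyond the fewer samples or the looser rule that some settings use.

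Signs turned only for uncalled values near 0. For the sexes in B6, Nr0b2 was 0.06 with upper-quartile scaling, 0.08 with the replicate block, 0.04 with only the B6 libraries, and 0.13 and 0.14 in limma (pseudocounts 1 and 0.1), and Nr1h4 was 0.05, 0.11 and 0.12 with upper-quartile scaling and in limma. Without the pool term Slc10a1 was -0.01 and Nr0b2 -0.17 in C3, and Nr0b2 was -0.11 for the interaction. Abcb11 between strains in males was 0.00 in limma. Leaving out 1 liver gave -0.27 to 0.27 for Nr0b2 and -0.11 to 0.06 for Nr1h4 in B6, -0.15 to 0.34 for Nr0b2 and -0.01 to 0.07 for Slc10a1 in C3, -0.09 to 0.01 for Nr1h4 between strains in females, and -0.18 to 0.05 for Cyp8b1 in males. For the interaction it gave -0.38 to 0.14 for Cyp7a1, -0.24 to 0.04 for Cyp39a1 and -0.13 to 0.44 for Nr0b2.

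Replicate numbers do not pair the mice: the mean correlation of same-numbered livers after group and pool were removed was 0.10 and -0.012 for the sexes in B6 and C3. The replicate block gave 845, 933, 1222, 1263 and 40 called genes in the 5 comparisons, of which 788, 835, 1184, 1203 and 36 were shared with the fit without it, and changed no call among the 10 genes. With 5 mice a group the SEs of the sex differences in B6 and C3 were 0.40 and 0.41 for Cyp7a1 and 0.39 and 0.40 for Nr0b2. The lowest counts of these genes were 2076 and 304, and the part of depth in the SEs was not tested.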
